A study of Bos taurus with 6 samples.

Results

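The genes described here are 29 genes of cholesterol synthesis, its control, transport and uptake, picked by name and ordered by step. They comprise 18 synthesis enzymes, 5 genes of sterol sensing and SREBP control, 4 of transport and storage and 2 uptake receptors. Of the 29, 28 were found among the 34733 named entries in each table, each as 1 entry, and all 28 passed the filter on low values. STARD4 was not analysed here.

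Cells make cholesterol from acetyl-CoA along a chain of enzymes. The mevalonate branch builds isoprenoid units, squalene is then formed and closed into the ring of lanosterol, and a further set of enzymes trims lanosterol to cholesterol. When sterol in the endoplasmic reticulum is low, the escort protein SCAP carries the transcription factors SREBP to the Golgi, where they are cut and freed to switch on synthesis and uptake genes, while INSIG proteins hold SCAP back when sterol is high. Cells also take cholesterol up from lipoproteins through surface receptors, and export it again to high density lipoprotein.

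Libraries were made from cells of the side population (SP, 3 libraries) and the main population (MP, 3 libraries), sorted from the endometrium, the lining of the uterus, of cattle (Bos taurus). Healthy uteri in the luteal phase came from slaughterhouses. Per the labels, the tissue was freed of luminal epithelium and treated with collagenase to give stromal cells, which were stained with a Hoechst DNA dye at 10 µg/mL for 90 min, alone or with 50 µM verapamil, an inhibitor of the dye pump. SP cells are those that pump the dye out, a property used to enrich stem-like cells. MP cells keep the dye. Both populations were isolated from endometrial stromal cells, dead cells were excluded with propidium iodide, and the labels give no antibody gate, so either population can hold several cell types. Whether replicates are separate animals is not stated, and p-values therefore reflect the spread of these libraries alone, which may be technical in part. The MP columns, unlike the SP columns, are tagged micro without explanation, and any difference in handling it marks cannot be told apart from the population.

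Levels are given as FPKM, a unit that divides fragment numbers by both library size and transcript length, so genes can be compared with each other. Counts were not used here. From the value that 1 fragment takes in short loci, depth was estimated, in units of 1e+06 fragments, at 12.6 to 22.9 in SP and 25.0 to 39.5 in MP. MP replicate 3 stood nearest to SP, with Pearson r across tested genes from 0.832 to 0.880 against the SP libraries, against 0.736 to 0.830 for MP replicates 1 and 2. Of 19 endothelial markers 17 were higher and none lower in SP, with summed levels of 1980.5 to 3182 FPKM in SP and 217 to 1194 FPKM in MP, where MP replicate 3 was highest. Without the filter on low values 9 of the 19 were called higher, with 17 at an unadjusted p under 0.05. Of 22 stromal fibroblast markers 19 were lower and none higher in SP, with sums of 377 to 637 FPKM in SP and 3739.9 to 13565 FPKM in MP. DCN, a fibroblast proteoglycan, was at 141, 126 and 194 FPKM in SP and 6200.0, 3815 and 1635 FPKM in MP, well apart between the groups. Pericyte and smooth muscle markers were lower in SP for 8 of 14 tested, myeloid markers for 13 of 16, T and NK cell markers for 8 of 9 and mast cell markers for 4 of 5, with none of these higher. Of those calls 7 myeloid, 6 T and NK cell and 2 mast cell ones, and 3 of the fibroblast ones, are of genes under 1 FPKM in every SP library, which could enter the test only through MP, so their direction was fixed by the filter. Of the remaining calls 6 were myeloid, 2 T and NK cell, 2 mast cell and 16 fibroblast. Over all listed markers of a type, pericyte and smooth muscle sums were 393 to 611 FPKM in SP and 1331 to 2177 FPKM in MP. Myeloid sums were 180.1 to 242 FPKM in SP and 870.4 to 1429 FPKM in MP. T and NK cell sums were 335 to 2773 FPKM in SP and 270.2 to 687 FPKM in MP. Mast cell sums were 14.8 to 34.0 FPKM in SP and 408 to 986 FPKM in MP. None of 15 epithelial markers tested passed in limma, 1 being lower in SP at an unadjusted p under 0.05 (sums of 297 to 2388 FPKM in SP, 1396 to 6155 FPKM in MP). CCL5, a chemokine, made up nearly all of the T and NK cell sum in SP (2771, 917 and 330.0 FPKM in SP, 183, 445 and 239 FPKM in MP). The T cell marker CD8B is listed at 0 in all 3 SP libraries. In such mixed samples fewer cells of a type and less RNA per cell cannot be told apart, and the part that the mix of cell types has in the results below was not tested.

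Differences were tested with limma on log2(FPKM + 1) over the 12127 genes that reached 1 FPKM in 3 or more libraries. "Rose" and "fell" below mean higher and lower in SP than in MP at a Benjamini-Hochberg adjusted p under 0.05. Fold changes are SP over MP on that log2 scale, which understates changes of low genes. Taken alone, a gene can reach no less than p = 0.1 in a two-sided exact permutation of 3 against 3, the value obtained for every one of the 13 genes without overlap between SP and MP values.

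SCARB1, SREBF1 and SC5D rose, LRP1, MSMO1, FDPS, IDI1 and PMVK fell, and the other 20 did not pass. These 8 are 28.6% of the 28, where 39.2% of all genes tested passed, 20.5% upward and 18.7% downward. Of all calls 52.3% were upward, or 68.0% with FPKM rescaled to a common sum, a setting in which 5 of the cholesterol genes rose and 1 fell. SP and MP values did not overlap for 13 of the 28 (46.4%), against 54.8% of all genes, with 5 above and 8 below MP, against 28.3% and 26.5% of all genes. A called change of at least 1 on the log2 scale was seen in 3 of the 28 (10.7%), against 29% of all genes. The median log2 fold change was -0.35, against 0.01 over all genes, and the median absolute log2 fold change was 0.58, against 0.68. The 18 enzymes had a median of -0.45 with 1 risen and 4 fallen, and the 10 other genes one of 0.21 with 2 risen and 1 fallen. The 3 risen genes are a receptor, a transcription factor and an enzyme, while 4 of the 5 fallen ones are enzymes.

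**Figure D1:**
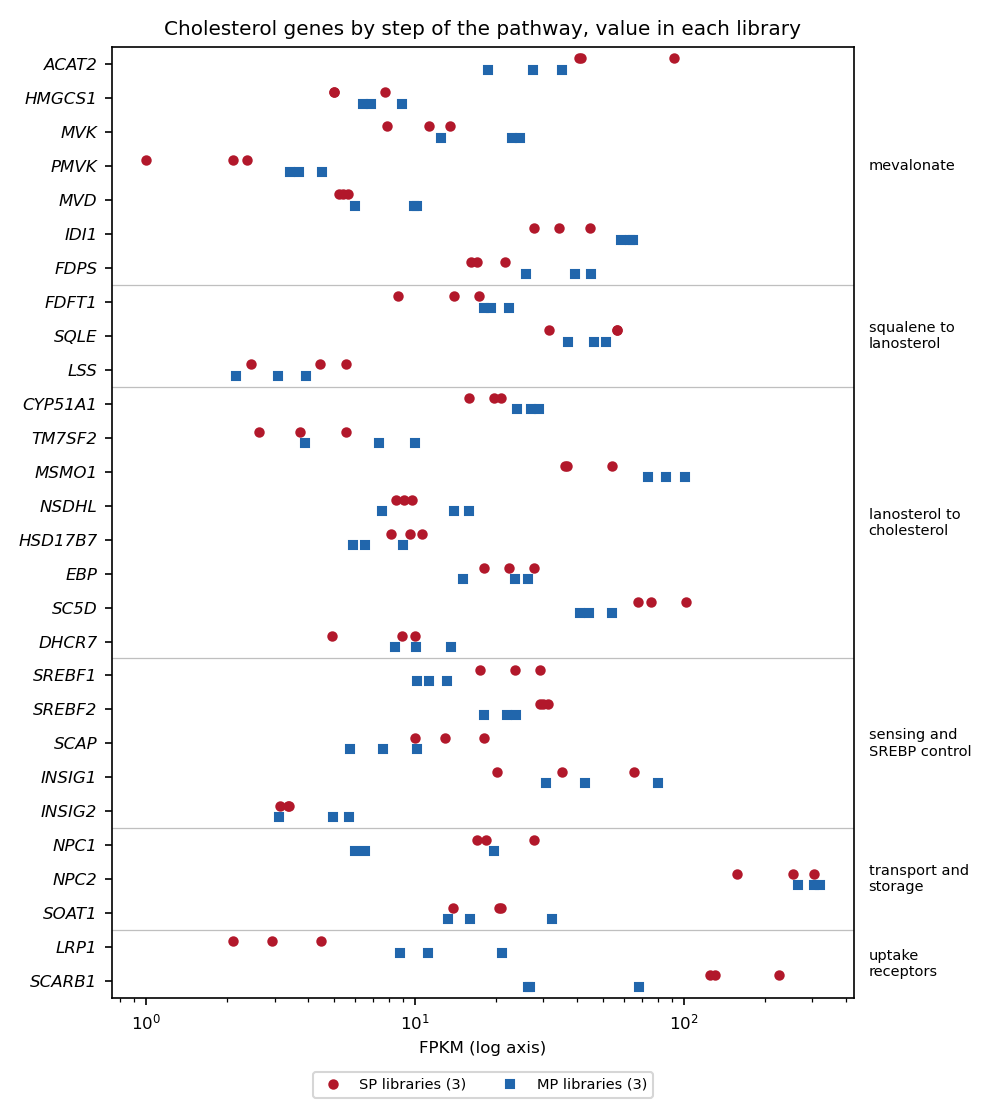
FPKM (log axis) of the 28 cholesterol genes in each library, ordered by step, with the 3 SP libraries as circles above the 3 MP libraries as squares for each gene. SCARB1, SC5D, SREBF1, SREBF2 and ACAT2 have all SP points to the right of all MP points, and PMVK, MVD, IDI1, FDPS, FDFT1, CYP51A1, MSMO1 and LRP1 have all SP points to the left.

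**Figure D2:**
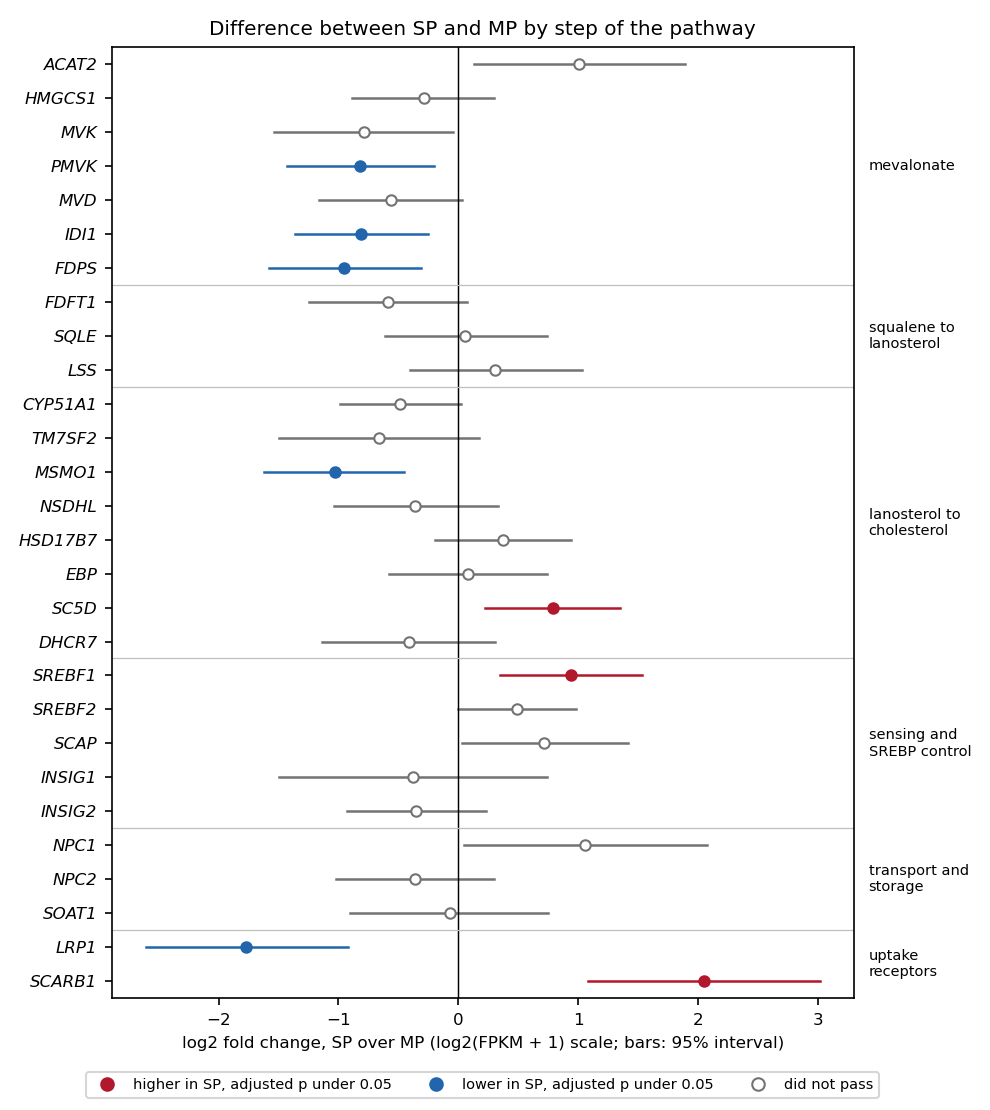
Log2 fold change of SP over MP on the log2(FPKM + 1) scale for the 28 genes in the same order, with 95% intervals from limma and filled points for genes that passed. Uptake receptors hold both ends, SCARB1 at 2.05 and LRP1 at -1.77, while the enzymes lie between -1.03 and 1.01.

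The mevalonate branch opens with acetyl-CoA condensation and ends with farnesyl diphosphate. IDI1, the isomerase that interconverts the isoprenoid building blocks (chromosome 13, 46325274 to 46328402; this and later positions are on ARS-UCD1.2), had levels of 34.2, 27.8 and 44.9 FPKM in SP, against 63.0, 64.7 and 58.4 FPKM in MP (values here and below run from replicate 1 to replicate 3). Every SP value lay below every MP value, and the log2 fold change was -0.81 ± 0.24 (SE; limma adjusted p = 0.0322). FDPS, farnesyl diphosphate synthase (chromosome 3, 15311070 to 15320374), was at 16.1, 21.6 and 17 FPKM in SP, against 45.2, 39.5 and 25.8 FPKM in MP. The groups did not overlap, MP replicate 3 came nearest to SP, and the log2 fold change was -0.95 ± 0.27 (SE; limma adjusted p = 0.0294). PMVK, phosphomevalonate kinase, which lies on the same chromosome (chromosome 3, 15659806 to 15675151), was the lowest of the 28 genes in SP, at 0.994, 2.11 and 2.36 FPKM, against 3.41, 3.70 and 4.49 FPKM in MP. It fell by 0.82 ± 0.27 (SE) on the log2 scale (limma adjusted p = 0.043). MVD, which makes isopentenyl diphosphate, was also lower in every SP library (5.65, 5.23 and 5.38 FPKM in SP, 9.93, 5.99 and 10.2 FPKM in MP) but did not pass (limma adjusted p = 0.114). MVK, mevalonate kinase, was at 13.5, 11.3 and 7.88 FPKM in SP and at 23.0, 12.5 and 24.5 FPKM in MP. Its MP replicate 2 lay among the SP values, and it did not pass (limma adjusted p = 0.0858), though it did without that library (0.0445).

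The opening enzymes of the branch did not pass. ACAT2, the cytosolic acetoacetyl-CoA thiolase, was at 91.8, 40.7 and 41.6 FPKM in SP, against 27.5, 18.7 and 35.1 FPKM in MP. All SP values were above all MP values, SP replicate 1 far above the rest, and the log2 fold change of 1.01 ± 0.38 (SE) did not pass (limma adjusted p = 0.0676). It passed with FPKM rescaled to a common sum (0.0191) and after leaving out mitochondrially encoded and ribosomal protein genes (0.0382). ACAT2 is listed at the same locus as TCP1, a chaperonin subunit gene at 69.8, 74.2 and 63.7 FPKM in SP and 61.0, 58.6 and 69.4 FPKM in MP, and reads of the pair may not be told apart since the use of strand in counting is not given. HMGCS1, which makes HMG-CoA, was at 7.72, 5.00 and 4.98 FPKM in SP and 8.97, 6.85 and 6.38 FPKM in MP, with overlapping values (limma adjusted p = 0.383). HMGCS1 shares its listed locus with TRH, at 10.9, 4.3 and 6.41 FPKM in SP and 12.4, 2.93 and 1.05 FPKM in MP. Reads of this pair may not be told apart either.

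None of the 3 enzymes from farnesyl diphosphate to lanosterol passed in limma (0 at an unadjusted p under 0.05). FDFT1, squalene synthase, was at 13.9, 8.65 and 17.3 FPKM in SP and 22.3, 19.2 and 18 FPKM in MP, lower in every SP library (limma adjusted p = 0.132). SQLE, the squalene epoxidase that limits the later part of the chain, was at 56.3, 31.6 and 56.6 FPKM in SP and 46.2, 37.0 and 51.5 FPKM in MP. The SP values thus spanned the MP values, and the log2 fold change of 0.06 had a 95% interval from -0.61 to 0.74. LSS, lanosterol synthase, was at 5.51, 2.45 and 4.41 FPKM in SP and 3.93, 2.16 and 3.08 FPKM in MP, with a 95% interval of the log2 fold change from -0.40 to 1.03.

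Among the 8 enzymes that turn lanosterol into cholesterol, SC5D rose and MSMO1 fell. SC5D, the sterol desaturase that acts late in the chain (chromosome 15, 31876088 to 31922383), was at 102, 67.7 and 75.5 FPKM in SP, against 41.2, 54.0 and 44.5 FPKM in MP. Its log2 fold change was 0.79 ± 0.24 (SE; limma adjusted p = 0.0367). MSMO1, the methylsterol oxidase that helps strip methyl groups from lanosterol (chromosome 17, 517365 to 534144), was at 36.8, 36.2 and 54.2 FPKM in SP, against 73.5, 101 and 86.1 FPKM in MP. Its log2 fold change was -1.03 ± 0.25 (SE; limma adjusted p = 0.0171), the most negative of the 18 enzymes. In FPKM, SC5D exceeded MSMO1 in every SP library (ratios of 2.78, 1.87 and 1.39), whereas MSMO1 exceeded SC5D in every MP library (ratios of SC5D to MSMO1 of 0.560, 0.533 and 0.516). These ratios are taken within a library, so no scaling between libraries changes them, but the pair was picked after its values were seen and the ratio is given as a description. As SC5D lay wholly above and MSMO1 wholly below MP, the ratios could not overlap between the groups.

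The other 6 late enzymes did not pass. CYP51A1, the demethylase that starts on lanosterol, was lower in every SP library, at 19.6, 15.9 and 20.9 FPKM against 24.0, 28.9 and 27.1 FPKM in MP (limma adjusted p = 0.108). TM7SF2, a sterol reductase, was at 3.73, 2.62 and 5.55 FPKM in SP and 7.31, 9.95 and 3.91 FPKM in MP, where replicate 3 fell among the SP values. It did not pass (limma adjusted p = 0.174), but did without that MP replicate 3 (0.049). NSDHL, a sterol dehydrogenase that works beside MSMO1, was at 8.51, 9.12 and 9.74 FPKM in SP and 14.0, 15.9 and 7.55 FPKM in MP, again with MP replicate 3 apart from the other MP libraries. HSD17B7, the ketosteroid reductase of the same demethylating complex, was at 10.6, 8.14 and 9.57 FPKM in SP and 9.04, 5.87 and 6.51 FPKM in MP. The isomerase gene EBP, at 27.7, 22.4 and 18.1 FPKM in SP and 23.6, 26.3 and 15.1 FPKM in MP, and DHCR7, which carries out the last reduction, at 10.0, 4.89 and 8.96 FPKM in SP and 13.6, 8.41 and 10.1 FPKM in MP, overlapped between the groups. Their 95% intervals of the log2 fold change ran from -0.58 to 0.74 and from -1.14 to 0.31.

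The make-up of the enzyme transcripts is given as shares of their summed level, as a description. Summed FPKM of the enzymes was 465, 323 and 405 in SP and 459.7, 461 and 438 in MP. The total over all named entries differed as well, at 870311.4, 747320.9 and 647501.3 FPKM in SP and 805914.6, 863630.6 and 963628.6 FPKM in MP. The enzyme sums are not scaled to these totals, so they do not rank the libraries by enzyme level. SC5D took the largest share of this sum in each SP library, 22%, 20.9% and 18.6%, against 8.95%, 11.7% and 10.1% in MP. MSMO1 took the largest share in each MP library, 16.0%, 22% and 19.7%, against 7.92%, 11.2% and 13.4% in SP. ACAT2 took 19.7%, 12.6% and 10.3% in SP and 5.99%, 4.05% and 8% in MP, and IDI1 7.34%, 8.59% and 11.1% in SP and 13.7%, 14.0% and 13.3% in MP. Shares did not overlap for ACAT2, HSD17B7 and SC5D, which were higher in SP, and for PMVK, IDI1, CYP51A1 and MSMO1, which were lower. Shares of a sum are tied together, so larger shares of SC5D and ACAT2 lower those of the other enzymes by construction. Reads of ACAT2 may not be told apart from those of TCP1, which makes its share, and through the sum the others, uncertain. FDPS shares overlapped, since SP replicate 2 at 6.69% lay above MP replicate 3 at 5.88%. SP replicate 2 was the lowest SP library for 12 of the 18 enzymes, while in MP each library was lowest for 4 to 7.

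**Figure D3:**
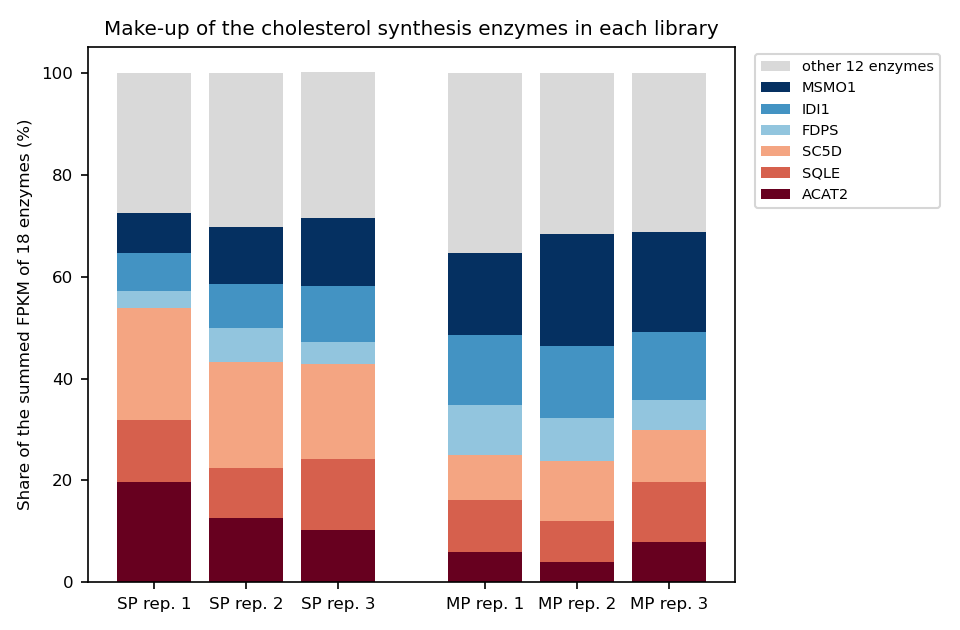
Share of the summed FPKM of the 18 synthesis enzymes (%) taken in each library by 6 of them and by the other 12 together, with SP replicates on the left and MP replicates on the right. The SC5D band is 18.6% to 22% high in SP and 8.95% to 11.7% in MP, and the MSMO1 band 7.92% to 13.4% in SP and 16.0% to 22% in MP.

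Of 6 other synthesis genes tested beside the 18, LBR rose, ACAT1 fell and 4 did not pass (median log2 fold change 0.10). These calls are 2 of 6, where 39.2% of all genes tested passed. LBR, a nuclear envelope protein with the same sterol reductase activity as TM7SF2, was at 9.70, 9.56 and 7.70 FPKM in SP and 4.47, 5.48 and 5.95 FPKM in MP (log2 fold change 0.67 ± 0.22 SE, limma adjusted p = 0.0482). The mitochondrial thiolase gene ACAT1 was at 10.7, 15.5 and 16.3 FPKM in SP and 30.2, 33.8 and 23.9 FPKM in MP (log2 fold change -1.01 ± 0.25 SE, limma adjusted p = 0.019), so the point estimates of ACAT1 and its cytosolic counterpart ACAT2 had opposite signs. The call of ACAT1 held in 13 of 20 alternatives and that of LBR in 6 of 20. Without single libraries ACAT1 was lost for SP replicate 1 and MP replicates 1 and 2 (adjusted p of limma 0.0541 to 0.0673) and LBR for any of the 6 (0.0509 to 0.135). Without the filter on low values LBR was lost too (0.0661). The branch from farnesyl diphosphate to prenylated proteins, dolichol and ubiquinone gave no limma call among 14 genes tested, where 39.2% of all genes tested passed. There 3 were at an unadjusted p under 0.05 in limma, 1 higher and 2 lower, and the median log2 fold change was -0.24. GGPS1, which makes geranylgeranyl diphosphate, was at 30.2, 32.8 and 29 FPKM in SP and 22.2, 25.4 and 25.4 FPKM in MP. FNTA, a subunit shared by prenyl transferases, was at 34.0, 40.6 and 35.8 FPKM in SP and 42.2, 35.3 and 44.1 FPKM in MP.

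The calls of enzymes lay near the threshold. MSMO1 was called in 14 of 20 alternatives (0.0158 to 0.166 for the adjusted p of limma), IDI1 and FDPS in 12 of 20 each (0.0296 to 0.231 and 0.0121 to 0.196), SC5D in 10 of 20 (0.0122 to 0.239) and PMVK in 6 of 19 (0.038 to 0.155), with no change of sign. Leaving out single libraries ended the call of MSMO1 without SP replicates 1 or 2 or MP replicate 2 (0.0594 to 0.0646) and of IDI1 without SP replicates 1 or 2 or MP replicates 1 or 2 (0.0796 to 0.106). FDPS was lost without SP replicates 1 or 3 or MP replicates 1 or 2 (0.0838 to 0.0919), and SC5D and PMVK without any 1 of the 6 (0.0542 to 0.119 and 0.0567 to 0.13). With FPKM rescaled to a common sum, which moves the median of all genes by 0.18 on the log2 scale, IDI1, FDPS, MSMO1 and PMVK kept negative log2 fold changes (-0.59, -0.74, -0.81 and -0.68) but did not pass.

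Of the 5 genes of sterol sensing and SREBP control, SREBF1 rose and the others did not pass. SREBF1, which encodes the SREBP that favours fatty acid genes (chromosome 19, 34632987 to 34649201), was at 29.2, 17.5 and 23.6 FPKM in SP, against 11.3, 13.1 and 10.2 FPKM in MP. It rose by 0.94 ± 0.25 (SE) on the log2 scale (limma adjusted p = 0.0238). SREBF2, which encodes the SREBP that favours cholesterol genes, was above MP in every SP library with little spread, 31.2, 29.2 and 29.8 FPKM in SP against 21.9, 23.7 and 18 FPKM in MP. Its log2 fold change of 0.49 ± 0.21 (SE) did not pass (limma adjusted p = 0.0982; 0.0575 to 0.326 over 20 alternatives). SCAP was at 18.1, 12.9 and 10.0 FPKM in SP and 7.60, 5.71 and 10.2 FPKM in MP, so SP replicate 3 and MP replicate 3 met, and it did not pass (limma adjusted p = 0.0898; 0.0268 with FPKM rescaled to a common sum). The call of SREBF1 was made in 13 of 20 alternatives and was lost without SP replicates 1 or 3 or MP replicates 1 or 2 (0.0504 to 0.0821).

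INSIG1, itself a target of SREBP, varied most of the 28 genes within SP (coefficient of variation 57.2%, against 50.3% in MP, where NPC1 at 72.1% and SCARB1 at 59.6% varied more). It was at 65.3, 20.1 and 35.2 FPKM in SP, against 79.8, 42.7 and 30.6 FPKM in MP, a 3.24-fold range in SP and a 2.61-fold range in MP. Its log2 fold change of -0.38 had a 95% interval from -1.5 to 0.74 and turned to 0.02 without SP replicate 2. INSIG2, its relative, was at 3.38, 3.40 and 3.13 FPKM in SP and 5.69, 4.95 and 3.12 FPKM in MP (limma adjusted p = 0.291). Of 18 further genes of SREBP cleavage and of the sterol-driven protein degradation, SEC24B and VCP rose, none fell and 16 did not pass (median log2 fold change 0.48). Calls were thus made for 2 of 18, where 39.2% of all genes tested passed. At an unadjusted p under 0.05 in limma 6 of the 18 were higher and 0 lower. SEC24B, a coat subunit of the vesicles that leave the endoplasmic reticulum, was at 33.4, 17.4 and 22 FPKM in SP and 5.52, 3.93 and 8.60 FPKM in MP (log2 fold change 1.85 ± 0.34 SE, limma adjusted p = 0.00672). SEC24B was lost without replicate number 1 or 2 of both groups (adjusted p of limma 0.063 and 0.0547). VCP, the segregase that pulls proteins from the membrane for degradation, was at 233, 188 and 171 FPKM in SP and 98.7, 93.3 and 109 FPKM in MP (log2 fold change 0.96 ± 0.22 SE, limma adjusted p = 0.0134; 0.0542 without MP replicate 2). Among 17 tested genes of fatty acid synthesis and handling named as SREBP targets, 2 rose and 4 fell, with a median of -0.48. These calls are 6 of 17, where 39.2% of all genes tested passed. Without the filter on low values limma called 0 higher and 1 lower, with 4 and 5 at an unadjusted p under 0.05, and FASN, SCD and ME1 were at an adjusted p of 0.0736, 0.05 and 0.0539. With a mean of at least 5 FPKM 1 was higher and 1 lower of 9 tested. FASN, fatty acid synthase, was at 8.68, 4.28 and 7.75 FPKM in SP and 3.51, 1.26 and 2.71 FPKM in MP, and SCD, a desaturase, at 34.9, 29.5 and 21.4 FPKM in SP and 6.44, 6.84 and 17.6 FPKM in MP (log2 fold changes 1.19 and 1.5, limma adjusted p = 0.0313 and 0.0212). SCD5, another desaturase, had 0.603, 1.55 and 1.83 FPKM in SP and 10.4, 6.14 and 5.89 FPKM in MP. ME1, malic enzyme, had 0.887, 0.735 and 0.712 FPKM in SP and 8.72, 3.40 and 2.22 FPKM in MP (log2 fold changes of SCD5 and ME1 -1.87 and -1.54, limma adjusted p = 0.00543 and 0.0194). ME1 was under 1 FPKM in every SP library, so it entered the test only because all MP values reached that level and its direction was fixed in advance. Single libraries ended the calls of FASN (without SP replicates 1 or 3 or MP replicate 2, 0.0914 to 0.1), of SCD (without SP replicates 1 or 2 or MP replicates 1 or 2, 0.0595 to 0.0721) and of ME1 (without any SP replicate, 0.0523 to 0.0559). SCD5 was lost without replicate number 2 of both groups (adjusted p of limma 0.0553).

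The uptake receptors had the largest log2 fold changes of the 28 genes, in opposite directions. SCARB1 encodes SR-BI, the receptor that takes cholesteryl ester from high density lipoprotein (chromosome 17, 50929262 to 51022466). It was at 226, 130.5 and 125 FPKM in SP, against 26.3, 26.7 and 68.3 FPKM in MP. All SP values lay above all MP values, SP replicate 1 was highest and MP replicate 3 the highest of MP, and the log2 fold change was 2.05 ± 0.42 (SE; limma adjusted p = 0.00942). LRP1, a large endocytic receptor for remnant lipoproteins and many other ligands (chromosome 5, 56229665 to 56310574), was at 2.11, 4.46 and 2.94 FPKM in SP, against 21.1, 11.2 and 8.79 FPKM in MP. It fell by 1.77 ± 0.36 (SE) on the log2 scale (limma adjusted p = 0.00972). By level SCARB1 ranked 2 among the 28 genes in every SP library, behind NPC2, and ranked 9, 10 and 3 in MP replicates 1 to 3. The ratio of SCARB1 to LRP1 within a library was 107, 29.3 and 42.6 in SP and 1.25, 2.40 and 7.77 in MP. This pair too was picked after its values were seen. As SCARB1 lay wholly above and LRP1 wholly below MP, the ratios could not overlap, and they are given as a description. Both calls held in 18 of 20 alternatives (adjusted p of limma 0.00282 to 0.0864 for SCARB1 and 0.00796 to 0.0633 for LRP1), all 6 that leave out 1 library among them, and were lost without replicate number 1 or 2 of both groups (0.0864 and 0.0812 for SCARB1, 0.0633 and 0.0601 for LRP1). Within MP, SCARB1 was highest in replicate 3, as was the sum of endothelial markers (217, 387 and 1194 FPKM in MP replicates 1 to 3). LRP1 was highest in MP replicate 1, as was the sum of fibroblast markers (13565, 6006 and 3739.9 FPKM). Within SP, LRP1 was highest in replicate 2, where the fibroblast sum was lowest (429.9, 377 and 637 FPKM in SP replicates 1 to 3). The part of these cells in both results was not tested.

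**Figure D4:**
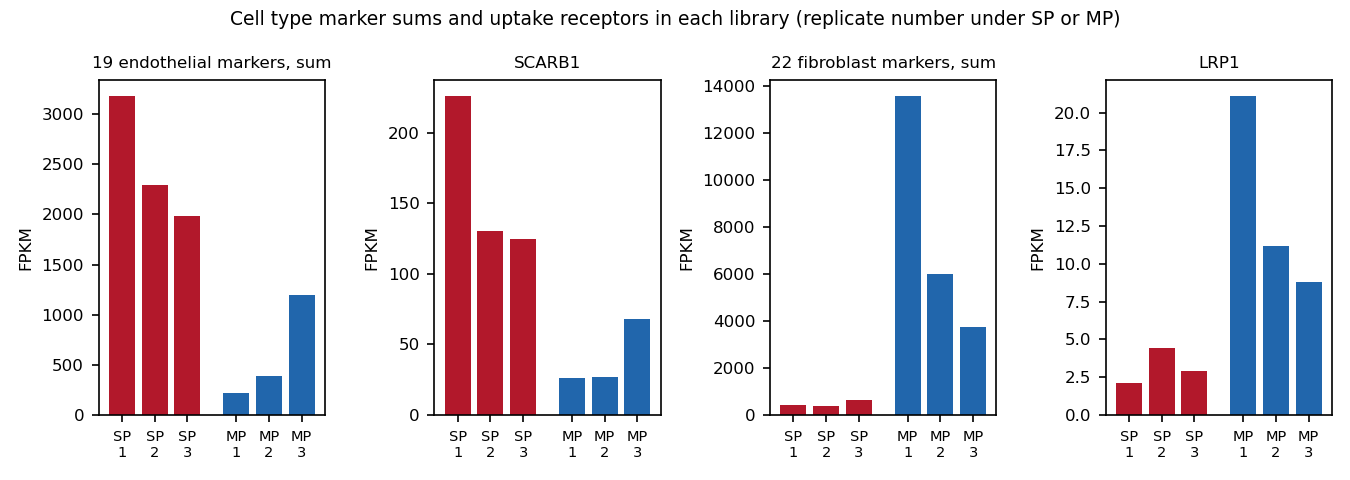
FPKM in each library for the sum of 19 endothelial markers, SCARB1, the sum of 22 stromal fibroblast markers and LRP1, with SP replicates 1 to 3 left of MP replicates 1 to 3 and every axis from 0. SCARB1 and the endothelial sum are highest in SP replicate 1 and, within MP, in replicate 3, while LRP1 and the fibroblast sum are highest in MP replicate 1. Within SP, LRP1 is highest in replicate 2 and the fibroblast sum in replicate 3.

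Of 11 other lipoprotein receptors and partners tested, 4 rose, 2 fell and 5 did not pass (median log2 fold change 0.19). The 2 that fell were CD36 and LIPA, a lysosomal lipase described below. Calls were thus made for 6 of 11, where 39.2% of all genes tested passed. For 2 of these 6, LRP8 and CD36, the filter fixed the direction in advance. MYLIP, a ubiquitin ligase that sends lipoprotein receptors to the lysosome, was at 207, 126 and 81.5 FPKM in SP and 58.2, 46.2 and 76.9 FPKM in MP (log2 fold change 1.11 ± 0.37 SE, limma adjusted p = 0.0459), and its call was lost without SP replicates 1 or 2 or MP replicates 1 or 2 (0.0984 to 0.138) or without the filter on low values (0.0884). VLDLR, the receptor of very low density lipoprotein, was at 29.1, 27.7 and 48.0 FPKM in SP and 5.72, 4.42 and 15.3 FPKM in MP (log2 fold change 2.05 ± 0.44 SE, limma adjusted p = 0.0109). LRP8, which binds apolipoprotein E, was at 4.42, 2.92 and 4.12 FPKM in SP and 0.569, 0.386 and 0.834 FPKM in MP. All its MP values were under 1 FPKM, so the filter fixed its direction in advance. DAB2, an adaptor for the endocytosis of such receptors, was at 85.2, 53.7 and 61.2 FPKM in SP and 19.5, 12.5 and 32.4 FPKM in MP (log2 fold change 1.66 ± 0.36 SE, limma adjusted p = 0.0114). Without replicate number 1 or 2 of both groups the calls of VLDLR and DAB2 were lost (adjusted p of limma 0.0796 and 0.0788 for VLDLR, 0.0963 and 0.0736 for DAB2). CD36, a scavenger receptor of macrophages and of capillary endothelium, was at 0.153, 0.327 and 0.344 FPKM in SP and 3.91, 7.97 and 1.60 FPKM in MP, a direction that the filter likewise fixed.

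**Figure D5:**
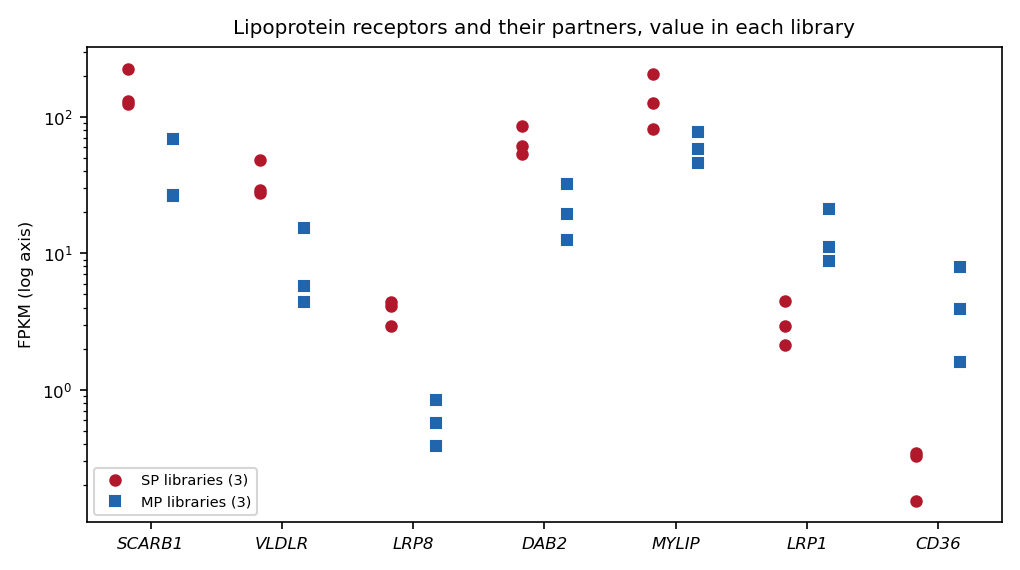
FPKM (log axis) in each library for SCARB1, LRP1 and 5 other lipoprotein receptors or their partners, with SP libraries as circles left of MP libraries as squares. SCARB1, VLDLR, LRP8, DAB2 and MYLIP have all SP points above all MP points, and LRP1 and CD36 have all SP points below.

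Inside the cell, NPC2 and NPC1 pass cholesterol out of the lysosome and SOAT1 esterifies it for storage, and none of these 3 passed in limma (1, NPC1, at an unadjusted p under 0.05). NPC2 was the highest of the 28 genes in all 6 libraries, at 255, 304 and 158 FPKM in SP and 267, 321 and 304 FPKM in MP (log2 fold change -0.36, 95% interval from -1.02 to 0.30). NPC1 was at 17, 27.7 and 18.3 FPKM in SP and 6.53, 19.7 and 6 FPKM in MP, where replicate 2 lay among the SP values. Its log2 fold change was 1.06 ± 0.44 (SE; limma adjusted p = 0.0874), and it passed without MP replicate 2 (0.0204). NPC1 is listed at the same locus as RMC1, which had a log2 fold change of 1.06 as well (limma adjusted p = 0.0328), and reads of the pair may not be told apart. SOAT1 was at 20.9, 20.5 and 13.8 FPKM in SP and 16.0, 32.2 and 13.3 FPKM in MP (95% interval of the log2 fold change from -0.90 to 0.75), with replicate 3 lowest in both populations. LIPA, the lysosomal lipase that frees cholesterol from lipoprotein esters and was chosen after its values were seen, was at 7.24, 11.4 and 8.40 FPKM in SP and 13.9, 26.1 and 21.2 FPKM in MP (limma adjusted p = 0.0252). It was lost without SP replicates 1 or 3 or MP replicates 2 or 3 (0.0502 to 0.0841).

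Of 19 genes listed as sterol carriers between membranes or as their partners, 6 rose, 2 fell and 11 did not pass (median log2 fold change 0.25). Calls were thus made for 8 of 19, where 39.2% of all genes tested passed. GRAMD1A, an endoplasmic reticulum protein that draws cholesterol from the plasma membrane, was at 175, 70.2 and 109 FPKM in SP and 17.4, 13.2 and 41.7 FPKM in MP (log2 fold change 2.31 ± 0.48 SE, limma adjusted p = 0.00977). Its relative GRAMD1B was at 3.90, 4.31 and 3.79 FPKM in SP and 0.911, 2.23 and 0.593 FPKM in MP (log2 fold change 1.22 ± 0.29 SE, limma adjusted p = 0.016; 0.0522 without MP replicate 1). OSBP, a sterol exchanger at the Golgi, was at 6.95, 6.27 and 9.65 FPKM in SP and 2.31, 1.73 and 3.24 FPKM in MP (log2 fold change 1.33 ± 0.27 SE, limma adjusted p = 0.00873). Without replicate number 1 or 2 of both groups GRAMD1A and OSBP were lost (adjusted p of limma 0.0885 and 0.0589 for GRAMD1A, 0.0672 and 0.0719 for OSBP). VAPB, an anchor of OSBP in the endoplasmic reticulum, was at 12.3, 13.8 and 11.9 FPKM in SP and 30.2, 23.9 and 21.4 FPKM in MP (log2 fold change -0.93 ± 0.22 SE, limma adjusted p = 0.0165). VAPB was lost without SP replicates 1 or 3 or MP replicate 1 (0.051 to 0.0562). Its relative VAPA, at higher levels, did not pass (log2 fold change 0.17, limma adjusted p = 0.589). VAPA was at 106, 122 and 113 FPKM in SP and 78.4, 122 and 108 FPKM in MP.

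Of 11 tested genes of efflux and of the oxysterol receptor LXR, 3 rose, 2 fell and 6 did not pass (median log2 fold change 0.25). Calls were thus made for 5 of 11, near the 39.2% of all genes tested that passed. Without the filter on low values limma called 0 genes of this list higher, with 5 at an unadjusted p under 0.05. ABCG1 and CLU were then at an adjusted p of 0.0524 and 0.0512. ABCG1, which exports cholesterol to high density lipoprotein, was at 123, 56.4 and 79.2 FPKM in SP and 5.43, 7.83 and 40.4 FPKM in MP (log2 fold change 2.64 ± 0.67 SE, limma adjusted p = 0.019), again highest within MP in replicate 3. It was lost without SP replicates 1 or 3 or MP replicates 1 or 2 (0.0502 to 0.0649). ABCA1, the exporter to lipid-poor apolipoprotein and like ABCG1 a target of LXR, was at 3.47, 1.51 and 3.04 FPKM in SP and 2.62, 1.64 and 1.80 FPKM in MP (95% interval of the log2 fold change from -0.41 to 0.91). CLU, a secreted apolipoprotein, was at 2853, 3595 and 2485 FPKM in SP and 1003, 1174 and 1783 FPKM in MP (log2 fold change 1.2 ± 0.29 SE, limma adjusted p = 0.0167). CLU was lost without SP replicate 2 or MP replicates 1 or 2 (0.0573 to 0.0643). APOE, the apolipoprotein of macrophages and other cells, was at 29.1, 56.8 and 104 FPKM in SP and 1107, 537 and 800.4 FPKM in MP (log2 fold change -3.78 ± 0.47 SE, limma adjusted p = 0.00228). PLTP, a phospholipid transfer protein, was at 3.17, 5.30 and 7.60 FPKM in SP and 110.5, 134 and 78.8 FPKM in MP (log2 fold change -4.13 ± 0.33 SE, limma adjusted p = 0.000621). Of the 16 myeloid markers tested 13 were lower in the same SP libraries, 7 of them with a direction fixed by the filter (C1QA, which had the largest difference, was at 0.193, 0.539 and 1.89 FPKM in SP, against 115, 105 and 337 FPKM in MP). CD14, CD68 and CTSS did not pass, and CD14 was at 105, 101 and 86.9 FPKM in SP and 38.9, 48.8 and 104 FPKM in MP. Of 22 fibroblast markers 19 were lower in SP too, 3 of them with a direction fixed by the filter. Within MP, APOE was highest in replicate 1. There the fibroblast sum was highest (13565, 6006 and 3739.9 FPKM) and the myeloid sum lowest (870.4, 1373 and 1429 FPKM). PLTP was highest in MP replicate 2, where neither sum was highest. The part of either cell type in the values of APOE and PLTP was not tested. Among 9 tested genes of oxysterol and steroid formation EBPL, a relative of EBP, fell and 8 did not pass. This is 1 of 9, where 39.2% of all genes tested passed. EBPL was at 2.27, 8.10 and 4.26 FPKM in SP and 13.3, 15.3 and 8.70 FPKM in MP (limma adjusted p = 0.0374), and was lost without SP replicates 1 or 3 or MP replicates 1 or 2 (0.0924 to 0.109) or without the filter on low values (0.0816). STAR and CYP11A1, which open steroid hormone synthesis, did not exceed 0.225 and 0.448 FPKM in any library.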

How the data were processed

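The authors deposited 1 table of FPKM values per library. Per the submitters' processing notes, cutadapt 2.5, HISAT2 2.1.0 and the build ARS-UCD1.2 were used, while neither the quantifier behind the FPKM values nor its strand setting is recorded there. The kit marks strand, per the labels' protocols. Coordinates are those of the deposited tables, whose loci can be wider than a gene and shared by several. Gene aliases came from RefSeq names. A row without a gene name, 0.185 to 0.347% of the sum in SP and 0.743 to 1.91% in MP, was left out.

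SP and MP were compared with limma 3.58.1 in R 4.3.3 on log2(FPKM + 1), for genes reaching 1 FPKM in 3 or more libraries, with a variance trend and Benjamini-Hochberg adjustment over 12127 genes. On simulated data with 200 changed genes of 12127, 16, 70, 80 and 94% of log2 changes of 1, 2, 3 and 4 were called. The changed genes were drawn from those with a mean log2(FPKM + 1) above 3, so low genes are not covered. In the data themselves 4759 genes were called, many more than were changed in the simulation. Its rates therefore do not give those of the test of SP against MP. Depth is an estimate from the smallest nonzero values.

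The members and gene lists were chosen with earlier results of these data known. Named are all members, up to 4 called genes of each related list by smallest p (with no call, the 2 highest), and a few fixed genes, and LIPA was added after its values were seen. Alternatives changed the pseudocount, filter, scaling, variance model, replicate block and libraries. Some related genes are not reported here and were left out of the lists and their counts.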

Additional observations from a re-analysis of the deposited data

How the results depend on the processing

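Of 20 alternatives, scaling and left-out libraries moved counts of the cholesterol genes by over 1.5 times, and the filter, the scaling, the block and left-out libraries did so for related or marker lists. With a mean of at least 5 FPKM 7 of 10 myeloid and 3 of 4 T and NK cell markers were lower. With FPKM rescaled to a common sum 5 of the 28 cholesterol genes were higher and 1 lower, and 2 were lower after dropping mitochondrially encoded and ribosomal protein genes. Leaving out 1 library, or both of a replicate number, gave 105 to 2574 genes higher and 246 to 1881 lower over all genes, and 0 to 2 cholesterol genes higher and 0 to 5 lower. Without replicate 1 or replicate 2 of both groups limma called 0 of the 28, with 4 and 9 at an unadjusted p under 0.05. Their median log2 fold change stayed between -0.41 and -0.15 in all 20. Log2 fold changes that turned their sign were all of genes that did not pass. SOAT1 was at 0.14 and FNTA at 0.09 with the common sum, and EBP at -0.01 with quantile normalization. With libraries left out, SOAT1 ranged from -0.32 to 0.29, SQLE from -0.08 to 0.34, EBP from -0.15 to 0.24 and INSIG1 from -0.80 to 0.02. The cause was not tested, though fewer libraries give fewer calls by construction. Same-numbered SP and MP libraries had correlations of their deviations from the group means of 0.105, 0.533 and -0.0854, and not every library correlated best with its own number, so the numbers were not taken to pair them. The SP and MP columns also share a stroma number for each pair, which may mark a shared preparation, but no label says so. With the replicate number as a block 2435 genes were higher and 2358 lower, and of the 28 genes 3 were higher and 5 lower, with SC5D lost (limma adjusted p = 0.0606) and NPC1 gained (0.0299). Of the other named genes LBR (0.0703) and MYLIP (0.0592) were lost, and of the epithelial markers 4 were lower. The planned description of promoter motifs was not run. Without counts, depth is only estimated, and low genes such as PMVK, LSS and INSIG2 are the least precise.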

Other observations

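CH25H, which makes 25-hydroxycholesterol, an oxysterol that holds SREBP back, varied widely within both populations. It was at 28.5, 45.1 and 130.3 FPKM in SP and 28.0, 11.0 and 143 FPKM in MP, highest in replicate 3 of both, and its log2 fold change had a 95% interval from -1.47 to 2.69 (limma adjusted p = 0.607).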
